A study of Mus musculus with 8 samples.

Results

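The genes described here are the 34 members of a list of p53 genes: Trp53, which encodes the mouse p53 protein, and 33 genes known as targets that p53 switches on. They were taken by symbol from the 32285 genes of the count matrices, and every symbol was found. Single cells of mouse tongue epithelium, taken 15 days after induction, gave 8 droplet libraries read from the 3' end, and each of 4 groups had 2 of them. All mice carried Krt14-CreERT and LSL-rtTA, through which tamoxifen given into the tongue and doxycycline in the diet switch on tetON transgenes in basal epithelial cells, where the Krt14 promoter is active, and in their progeny. According to the methods of the study all mice also carried the reporter tetON_H2B-GFP. N mice had no further transgene and served as the control. In E mice tetON_E6-E7 was added, which holds both oncogenes of a human papillomavirus. In Y mice tetON_YAP1S127A was added, a mutant of the coactivator YAP1 that stays active, and EY mice had both. Groups were balanced for age and sex. The label of N2 holds 2 animal numbers, so that library may pool animals. Libraries are named by group and replicate, and p-values measure the spread between these libraries.

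The p53 protein is a transcription factor that accumulates after DNA damage and other stress and switches on genes for cell cycle arrest, cell death, DNA repair and metabolic restraint. Its target Mdm2 encodes the ubiquitin ligase that marks p53 for destruction, which closes a feedback loop. The papillomavirus protein E6 directs p53 to degradation through the host ligase encoded by Ube3a, so the protein is lost while the Trp53 transcript need not be, and E7 inactivates the retinoblastoma protein. Mice with and without E6-E7 were therefore compared for the level of p53 target transcripts, and mice with and without active YAP likewise.

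The binding sites of p53 are built from units of 10 bases, each of 3 purines, a C, 2 bases that are A or T, a G and 3 pyrimidines, and a full site holds a pair of units within 13 bases of each other. The promoters below belong to members whose levels are described in full, and show which of them hold such a unit just before an annotated start. In the promoter windows of RefSeq (build GRCm38.p6, 250 bases before to 50 after a start), 25 of the 34 members were matched, with 36 windows, and 12 of these, from 11 genes, held at least 1 unit. Of all 32851 windows, 8.36% held a unit. The unit reads the same on both strands. A pair was found in 1 window of the members, that of Cdkn1a, and in 0.0731% of all windows. A match describes the letters and is not evidence of binding. Capitals mark the units, and each stretch runs 5′ to 3′ on the strand of the gene, outside the annotated exons. The Cdkn1a stretch is chr17:29090886-29090957 on the plus strand, with its first unit 73 bases before the start and 12 bases between the units. The Mdm2 stretch is chr10:117710915-117710964 on the minus strand, that of Ccng1 chr11:40755442-40755491 on the minus strand and that of Bax chr7:45467070-45467119 on the minus strand. The stretches of Sesn1 (chr10:41887246-41887295), Ddit4l (chr3:137623562-137623611) and Trp53 (chr11:69580264-69580313) lie on the plus strand. Those of Sesn1 and Ddit4l lie inside the annotated genes, which begin at 41809935 and 137621612, so they precede a start further inside the gene.
Cdkn1a: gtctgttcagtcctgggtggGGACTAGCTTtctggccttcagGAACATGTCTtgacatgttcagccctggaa
Mdm2: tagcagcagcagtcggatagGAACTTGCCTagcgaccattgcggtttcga
Ccng1: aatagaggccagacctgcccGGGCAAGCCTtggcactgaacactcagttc
Bax: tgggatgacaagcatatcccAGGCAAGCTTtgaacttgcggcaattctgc
Sesn1: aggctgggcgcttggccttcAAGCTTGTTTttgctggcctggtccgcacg
Ddit4l: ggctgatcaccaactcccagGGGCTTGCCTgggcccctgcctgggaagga
Trp53: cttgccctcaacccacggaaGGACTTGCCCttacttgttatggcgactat

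Epithelial cells were those in which the keratins Krt5, Krt14, Krt15, Krt13 and Krt6a made up at least 0.5% of the unique molecular identifiers (UMIs, each standing for 1 captured RNA molecule) and which held no UMI of the leukocyte gene Ptprc. There were 12957 such cells, from 170 in EY1 to 4055 in E1, with 2454816 UMIs in EY1 and 55154619 in E1. Levels are UMIs summed per library, as counts per 1e6 UMIs (CPM) on library sizes scaled by the trimmed mean of M values. EY1 gave the least precise values, and 19 of the 34 members had under 50 UMIs there. All 8 epithelial markers were detected in every library, with a sum of 20824 to 24633 CPM. The sum of 5 myeloid markers, of which none was at 0 in any library, was 22.7 to 38.9 CPM in N, 26.3 to 33.6 in E, 69.8 to 82.7 in Y and 46.7 to 168 in EY, and its part in the results was not tested. The sum of 4 T cell markers was 5.61 to 6.79 CPM in N, 6.05 to 11.6 in E, 3.52 to 14.96 in Y and 15.4 to 30.8 in EY, with 1 of the 4 at 0 in some library. Markers of fibroblasts, endothelium and muscle summed to at most 5.31 CPM in any library, and those of red cells to 1.81 to 707 CPM. Basal keratin cells, in which Krt5, Krt14 and Krt15 gave at least 80% of the keratin UMIs, were 72.9 to 74.4% of epithelial cells in N and E, 58.8 to 66.0% in Y and 48.8 to 52.2% in EY. Cells with a UMI of at least 1 of the cycling genes Mki67, Top2a, Cdk1, Ccnb1 and Birc5 were 52.1 to 71.8% in 7 libraries and 93.8% in EY2. Mouse Yap1 was at 31.4 to 46.1 CPM in the libraries without the YAP transgene and at 174 to 447 CPM in those with it. Whether reads of the YAP transgene were counted under this symbol was not tested.

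The members covered a wide range of levels. By the median over libraries, 7 members were at 100 CPM or more, 13 between 10 and 100 CPM, and 14 under 10 CPM. For 23 members the highest library was less than 3 times the lowest, for 8 it was more than 5 times, and for Sesn1 it was 4.67 times. Gdf15 and Trp53cor1 were at 0 in at least 1 library and had no such ratio. Of the 34 members 33 passed the filter on low counts and were tested. Trp53cor1, a long noncoding RNA gene beside Cdkn1a, did not pass, with 32 UMIs in all epithelial cells and 0.278 CPM in its highest library. Sesn1, Sesn2, Bax, Fas and Rrm2b overlap another annotated gene on the same strand, so their counts are less certain.

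**Figure D1:**
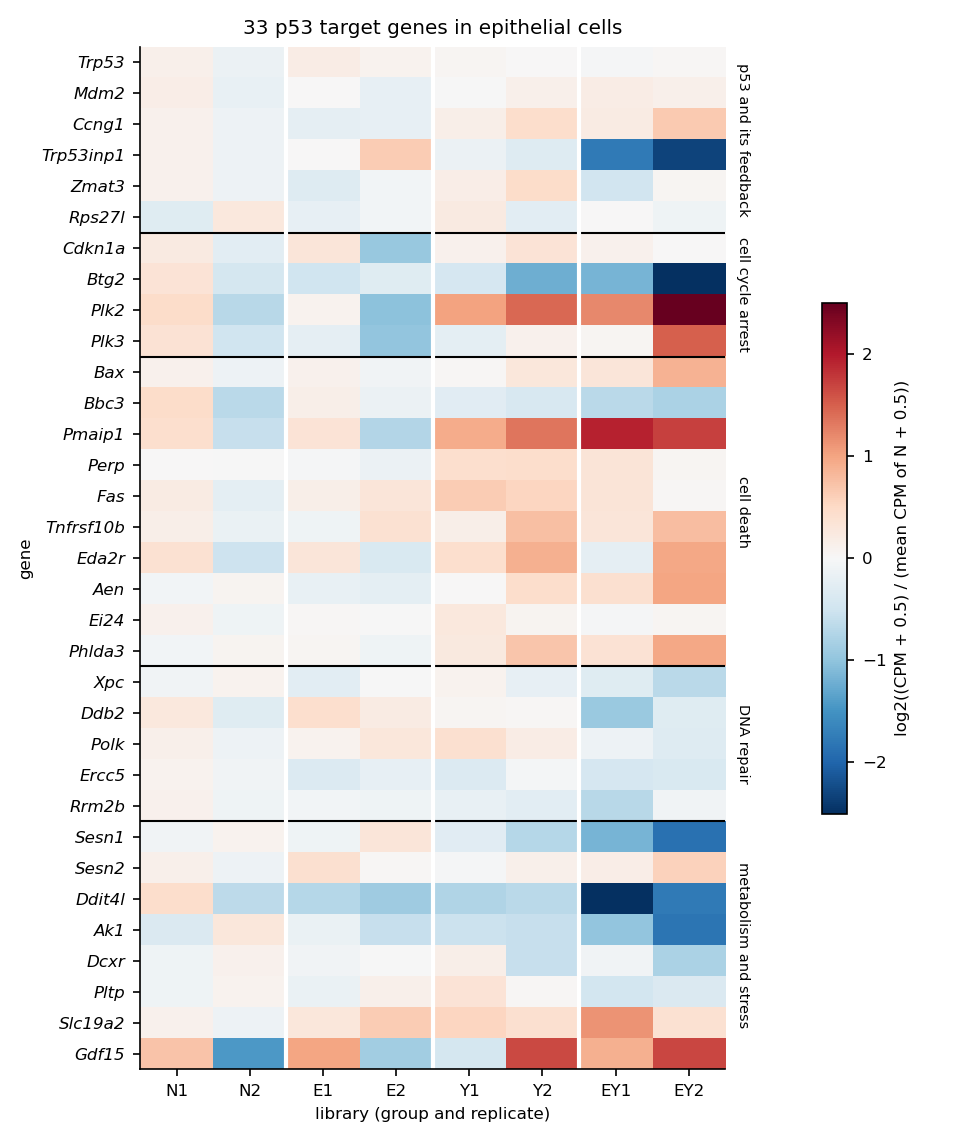
Colour gives the log2 ratio of a member's level to the mean of the N libraries (CPM, with 0.5 CPM added to both) for the 33 tested members, in rows by role, and the 8 libraries, in columns. Colours end at 2.5 in both directions, which Plk2 and Btg2 in EY2 and Ddit4l in EY1 reach, and rows such as Trp53 and Mdm2 stay pale throughout.

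With E6-E7, no p53 target was called lower or higher in epithelial cells. The 4 libraries with E6-E7 were set against the 4 without it, in a model that also held the YAP transgene. The sums pool all epithelial cells, and transgenes are not among the features. Cells that expressed E6-E7 were therefore not told from other cells here, and their share in each library was not measured. The study aligned reads to the transgene sequences separately and showed E6-E7 by cell and by cluster. By edgeR's quasi-likelihood test with Benjamini-Hochberg adjustment, 0 of the 33 members had an adjusted p under 0.05, against 0.406% of all genes tested (55 of 13555, all higher). At an unadjusted p under 0.05 there were 2 members, Ddit4l and Ak1, both with estimates below 0, against 11.5% of all genes. DESeq2 called 1, Ddit4l, against 2.16% of all genes. Estimates were below 0 for 22 members and above 0 for 11, with a median log2 fold change of -0.10, against -0.03 over all genes.

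The level of Trp53 was 118 and 98.6 CPM in N (replicates 1 and 2, in this order here and below), 123 and 115 CPM in E, 112 and 109 CPM in Y, and 106 and 111 CPM in EY. The groups overlapped, and the highest library was 1.25 times the lowest. Its E6-E7 effect was 0.05 on the log2 scale (SE 0.10, 95% interval -0.18 to 0.29, adjusted p = 0.839).

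Mdm2, the feedback ligase, was at 26.3 and 20.6 CPM in N, 23.5 and 20.4 CPM in E, 23.4 and 25.5 CPM in Y, and 26.8 and 25.6 CPM in EY. The spread between the N libraries was nearly as wide as that over all 8. The E6-E7 effect had an interval of -0.30 to 0.29 (SE 0.13, adjusted p = 0.993). Ccng1, which encodes cyclin G1, another member of the feedback, was at 20.9 and 17.6 CPM in N, 16.3 and 16.7 CPM in E, 21.5 and 26.4 CPM in Y, and 22.3 and 30.8 CPM in EY. Both E libraries lay below the others and the libraries with YAP above them, and the E6-E7 effect was -0.03 (SE 0.16, interval -0.39 to 0.34, adjusted p = 0.965).

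Cdkn1a encodes the cyclin-dependent kinase inhibitor p21 and is widely used to read p53 activity. It was at 223 and 160 CPM in N, 237 and 99.7 CPM in E, 205 and 244 CPM in Y, and 205 and 192 CPM in EY. E1 was second only to Y2 while E2 was the lowest, so the E libraries differed from each other by more than the group means did. Cells of N1 and E1 held a median of 13656 and 12575 UMIs and those of N2 and E2 22942 and 23570, and Cdkn1a, Plk2, Plk3 and Pmaip1 were lower in N2 and E2 than in N1 and E1. The part of depth in this was not tested. The E6-E7 effect was -0.18 (SE 0.24, interval -0.74 to 0.38, adjusted p = 0.766).

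Bax, whose product permeabilises mitochondria, was at 127 and 107 CPM in N, 126 and 110.0 CPM in E, 120 and 143 CPM in Y, and 144 and 215 CPM in EY. N and E overlapped and EY2 stood above the rest. The E6-E7 effect was 0.23 (SE 0.17, interval -0.14 to 0.61, adjusted p = 0.570). Perp, a desmosome and cell death gene, was at 1119 and 1100.2 CPM in N, 1087 and 1006 CPM in E, 1475 and 1512 CPM in Y, and 1390.3 and 1152 CPM in EY. The libraries with YAP all lay above those without it, and the E6-E7 effect was -0.16 (SE 0.10, interval -0.38 to 0.07, adjusted p = 0.531).

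For 23 of the 33 members the 95% interval of the E6-E7 effect lay within 1 log2 unit of 0. A change of 2-fold or more in the sum over all epithelial cells was outside those intervals. The widest intervals were those of Gdf15, a secreted stress cytokine gene (-1.52 to 2.45), and Eda2r, a death receptor gene (-1.15 to 1.14), both under 4 CPM in every library. Ddit4l, an inhibitor of mTORC1, had the most negative estimate, -1.11 (SE 0.30, interval -1.79 to -0.43, adjusted p = 0.278). DESeq2 gave -1.10 (adjusted p = 0.0385), and over the 7 alternatives other than leaving out libraries its adjusted p ran from 0.00876 to 0.999. Its level was 12.8 and 5.72 CPM in N, 5.46 and 4.78 CPM in E, 5.25 and 5.63 CPM in Y, and 1.22 and 2.35 CPM in EY. N1 stood above the other 7 libraries and both EY libraries below them. In E against N alone 0 members were called and 0 had an unadjusted p under 0.05, and by DESeq2 0 were called too. Of all genes 0.243% were called there, 3.73% had an unadjusted p under 0.05, and DESeq2 called 1.05%.

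**Figure D2:**
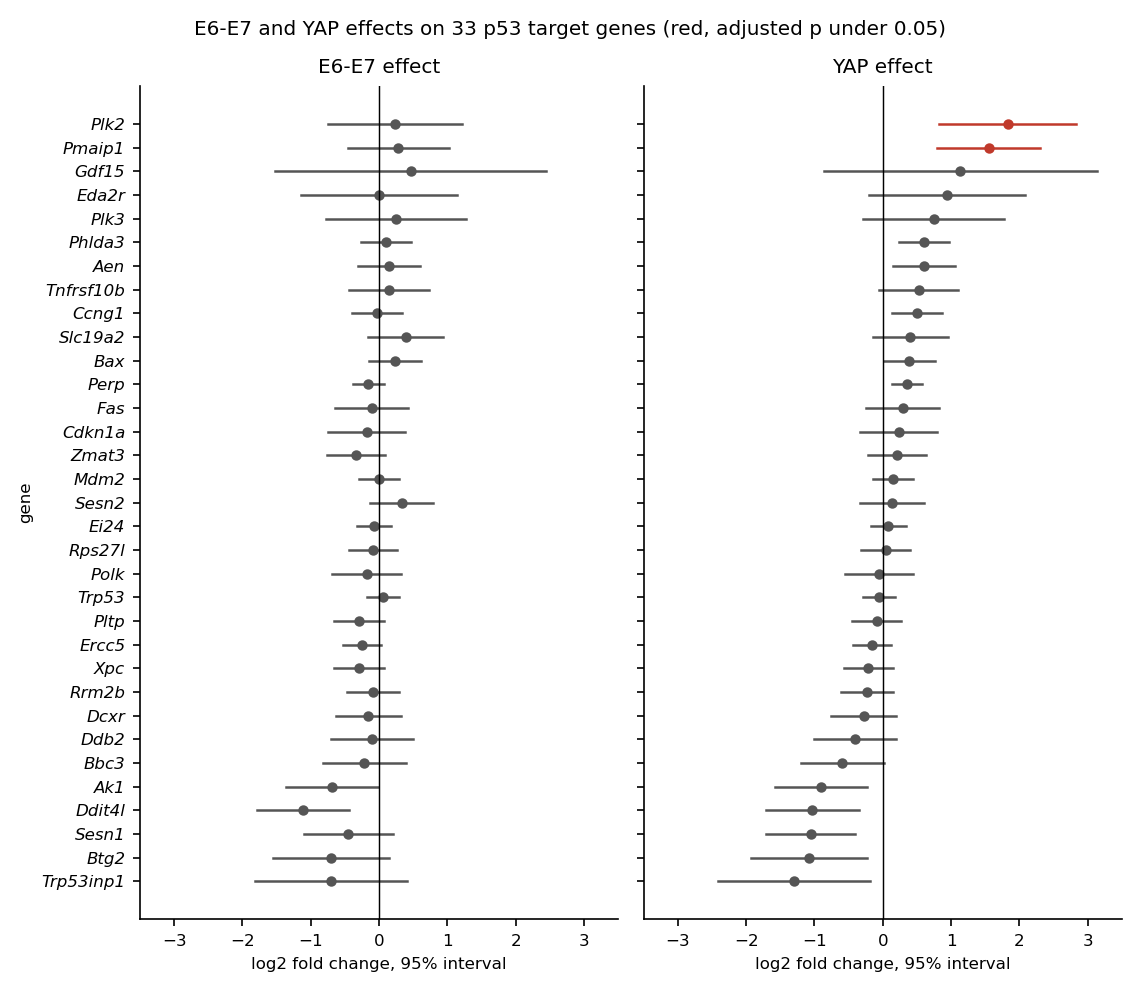
Points give the log2 fold change (horizontal axis) of the 33 tested members for E6-E7 (left) and YAP (right), each from the model with both transgenes, and lines their 95% intervals, with red for an adjusted p under 0.05. On the left no point is red, and on the right Plk2 and Pmaip1 are.

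With YAP, 2 members, Plk2 and Pmaip1, were called higher and 0 were called lower. These 2 of 33 stood against 8.98% of all genes tested (1217 of 13555, 5.26% higher and 3.72% lower), so the members' share was no higher than the background. The median log2 fold change of the members was 0.13, against -0.03 over all genes, and 12 members had an unadjusted p under 0.05, against 31.4% of all genes.

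Plk2, a polo-like kinase gene linked to arrest and centriole duplication, was at 46.2 and 20.4 CPM in N, 35.4 and 16.2 CPM in E, 67.4 and 91.0 CPM in Y, and 77.6 and 197 CPM in EY. The libraries with YAP all lay above those without it, EY2 furthest. The YAP effect was 1.82 on the log2 scale (SE 0.44, interval 0.82 to 2.83, adjusted p = 0.0409).

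Pmaip1, which encodes the BH3-only death protein NOXA, was at 10.5 and 5.001 CPM in N, 9.92 and 4.46 CPM in E, 15.3 and 20.3 CPM in Y, and 30.9 and 26.5 CPM in EY. N and E mixed at the bottom, Y lay above them and EY above Y, with no overlap. When cells were kept however many genes or UMIs they held, EY against N (1.57) did not exceed the YAP effect (1.77). Within the limits on genes and UMIs the YAP effect was 1.55 (SE 0.33, interval 0.80 to 2.30, adjusted p = 0.0292). In Y against N alone it was 1.152 (SE 0.43, adjusted p = 0.352), and 0 members were called there, against 0.457% of all genes, with 2 (Pmaip1 and Perp) at an unadjusted p under 0.05, against 12.2% of all genes. DESeq2 called 0 members there, against 3.44% of all genes.

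Further members lay just outside the threshold. Phlda3, an inhibitor of AKT, had a YAP effect of 0.60 (adjusted p = 0.0520), Perp of 0.35 (adjusted p = 0.0564) and Ccng1 of 0.50 (adjusted p = 0.0782). Sesn1, which encodes the stress protein sestrin 1, had -1.06 (adjusted p = 0.0539) and Ddit4l -1.03 (adjusted p = 0.0621). The number called was 0 without E1, E2, Y2 or EY1. It was 1 higher without EY2, 2 higher without N1, 2 lower and 0 higher without N2, and 4 higher and 1 lower without Y1. The share of all genes called in those 8 fits ran from 2.32% without E1 to 12.2% without Y1. Plk2 and Pmaip1 were each called in 2 of those 8 fits, without N1 and without Y1. When cells were kept however many genes or UMIs they held, which raised the EY1 cells from 170 to 481, 15 members were called, against 41.4% of all genes (21.2% higher and 20.2% lower). Those 15 were Plk2, Pmaip1, Plk3, Bax, Aen, Phlda3, Ccng1, Tnfrsf10b, Eda2r and Slc19a2 higher, and Trp53inp1, Btg2, Sesn1, Ak1 and Ddit4l lower. In basal keratin cells alone 0 were called, against 6.24% of all genes, with 1.63 for Plk2 (adjusted p = 0.0558) and 1.32 for Pmaip1 (adjusted p = 0.0515).

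**Figure D3:**
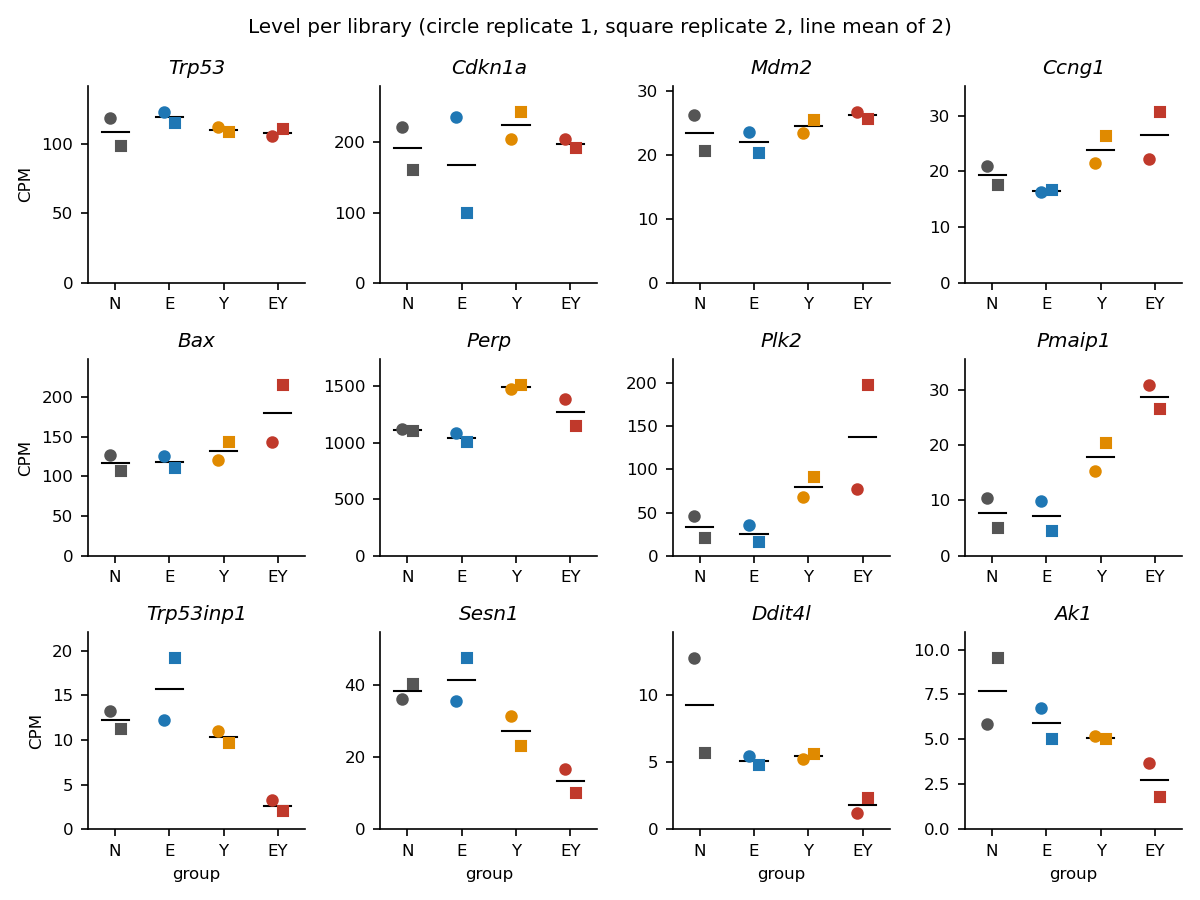
Each panel gives the level in CPM (vertical axis, from 0) of 1 gene in the groups N, E, Y and EY, with a circle for replicate 1, a square for replicate 2 and a line for their mean. Trp53 and Mdm2 differ little between groups, Plk2 and Pmaip1 are higher in Y and EY, and Trp53inp1, Sesn1, Ddit4l and Ak1 are lowest in EY.

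Between EY and N, 6 members were called, 2 higher and 4 lower, against 18.8% of all genes tested (9.31% higher and 9.5% lower). Plk2 was higher by 2.05 (SE 0.58, adjusted p = 0.0469) and Pmaip1 by 1.83 (SE 0.45, adjusted p = 0.0336), in libraries that also enter the YAP effect. Trp53inp1, Sesn1, Ddit4l and Ak1 were lower. The median over the 33 members was 0.00, against -0.05 over all genes, and 12 members had an unadjusted p under 0.05, against 39.0% of all genes. Genes of the integrated stress response and of the immediate early and heat shock responses moved in the same comparison. Of 6 tested genes of the first list 4 were higher, Chac1 (3.91), Trib3 (3.496), Asns (1.46) and Psat1 (1.69), and its sum was 212 to 294 CPM in N and 424 to 683 CPM in EY. Of 9 genes of the second 3 were lower, Fos (-1.62), Fosb (-1.66) and Egr1 (-1.64), and its sum was 5023 to 8447 CPM in N and 2847 to 3553 CPM in EY. Of the 3 tested T cell markers Trbc2 was higher (2.23, adjusted p = 0.0450). Of the 5 myeloid markers 1 was called higher, as it was for 1 of the 5 with YAP and in EY against E. The part of these changes in the members' results was not tested.

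Trp53inp1 encodes a nuclear partner of p53 that also takes part in autophagy. It was at 13.2 and 11.2 CPM in N, 12.3 and 19.2 CPM in E, 11.1 and 9.65 CPM in Y, and 3.25 and 2.04 CPM in EY. Both EY libraries lay below the other 6, and EY1 rested on 8 UMIs, with an exact 95% Poisson interval of 1.40 to 6.401 CPM that covers counting error only. The fold change of EY against N was -2.40 on the log2 scale (SE 0.34, adjusted p = 0.00975), the most negative of the 33 members.

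Sesn1 was at 35.9 and 40.2 CPM in N, 35.4 and 47.3 CPM in E, 31.3 and 23.0 CPM in Y, and 16.6 and 10.1 CPM in EY. The Y libraries lay between EY and the libraries without YAP. The fold change of EY against N was -1.60 (SE 0.29, adjusted p = 0.0172).

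Ddit4l, with the levels given above, had a log2 fold change of -2.19 (SE 0.44, adjusted p = 0.0210), and EY1 rested on 3 UMIs (interval 0.251 to 3.56 CPM). Ak1, an adenylate kinase gene, was at 5.84 and 9.53 CPM in N, 6.75 and 5.02 CPM in E, 5.17 and 5.02 CPM in Y, and 3.65 and 1.81 CPM in EY. Both EY libraries were the lowest, and EY1 rested on 9 UMIs (interval 1.67 to 6.94 CPM). The fold change of Ak1 was -1.72 (SE 0.42, adjusted p = 0.0329). Btg2, an antiproliferative gene, ran from 753 CPM in N1 to 83.1 CPM in EY2, with a fold change of -1.79 that missed the threshold (SE 0.55, adjusted p = 0.0563).

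By role, 1 of 6 genes of p53 and its feedback was lower in EY than in N, 1 of 4 tested arrest genes was higher, 1 of 10 death genes was higher, 0 of 5 DNA repair genes were called, and 3 of 8 genes of metabolism and stress were lower. These stood against 9.31% of all genes higher and 9.5% lower, and with so few genes a role no difference from the background is read from them. The 5 repair genes Xpc, Ddb2, Polk, Ercc5 and Rrm2b all had estimates below 0, from -0.55 to -0.30. Of these Xpc and Ercc5 had an unadjusted p under 0.05, against 39.0% of all genes. Of the 10 death genes 9 had estimates above 0, 1 of them called, and Bbc3, which encodes PUMA, had -0.85 (adjusted p = 0.150). The median over all genes was -0.05, and no shift of a role as a whole was tested.

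Between EY and E, 5 members were called, against 16.4% of all genes (7.97% higher and 8.46% lower). Plk2 (2.42, adjusted p = 0.0346), Pmaip1 (1.94, adjusted p = 0.0316) and the apoptosis nuclease gene Aen (0.97, adjusted p = 0.0330) were higher, and Trp53inp1 (-2.75, adjusted p = 0.0115) and Sesn1 (-1.72, adjusted p = 0.0170) were lower. Without E2 or EY2 0 members were called (0.021 and 0.0431% of all genes), without E1 2 (1.41%), and without EY1 10 (25.9%). Between EY and Y, 0 members were called, against 0.0443% of all genes, with 6 at an unadjusted p under 0.05, against 23.4% of all genes, and 2 called by DESeq2, against 7.29%. The test of whether both transgenes together differed from the sum of the single effects called 0 members and 0.0% of all genes. At an unadjusted p under 0.05 it held 4 members and 1562 genes (11.5%), and DESeq2 called 1 member and 0.743% of all genes. The 4 were Trp53inp1 (-2.499, adjusted p = 0.301), Sesn1 (-1.23, adjusted p = 0.360), Plk3 (1.67, adjusted p = 0.424) and Pltp (-0.59, adjusted p = 0.428).

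The number of members called in EY against N moved with the library left out. It was 0 without EY2 and without N1, fits that called 0.18 and 0.0357% of all genes. It was 2 without N2, both lower (1.9% of all genes), 3 without Y1 or Y2, all lower (13.2 and 12.9%), 1 higher and 4 lower without E1 or E2 (at most 12.4%), and 5 higher and 5 lower without EY1 (28.5%). Where a group kept 1 library, that library was assumed to vary like the other groups. Without EY2 the estimates were -1.93 for Trp53inp1 (adjusted p = 0.102), -1.20 for Sesn1 (adjusted p = 0.116), -2.97 for Ddit4l (adjusted p = 0.116) and -1.05 for Ak1 (adjusted p = 0.275). For the higher genes they were 1.19 for Plk2 (adjusted p = 0.296) and 1.93 for Pmaip1 (adjusted p = 0.141). All 6 estimates kept their direction in every fit that left out a library.

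Some of these genes depended on which cells were summed. In cells with no UMI of the cycling genes, of which EY1 had 48 and EY2 125, Trp53inp1 had -0.91 (adjusted p = 0.215), Ddit4l -0.46 (adjusted p = 0.658) and Ak1 -0.41 (adjusted p = 0.652) for EY against N. Sesn1 had -1.27 (adjusted p = 0.0469) and Pmaip1 2.13 (adjusted p = 0.0454) in those cells, and Plk2 1.73 (adjusted p = 0.0812). In basal keratin cells Trp53inp1 had -2.53 (adjusted p = 0.00894), Ddit4l -2.23 (adjusted p = 0.0451) and Sesn1 -1.36 (adjusted p = 0.0359), while Plk2, Pmaip1 and Ak1 missed the threshold. Over the 7 alternatives other than leaving out libraries, the highest adjusted p was 0.215 for Trp53inp1, 0.0469 for Sesn1, 0.658 for Ddit4l, 0.652 for Ak1, 0.0812 for Plk2 and 0.0872 for Pmaip1.

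Within each library, members differed between basal keratin cells and the other epithelial cells. This is a description over 8 libraries, not tested. Cdkn1a was lower in basal keratin cells in 8 of 8 libraries, at 126 ± 40.5 CPM (SD, n = 8) against 330.1 ± 62.9 CPM. Perp, at 964 ± 147 against 1757 ± 244 CPM, was also lower there in 8 of 8, and so were Plk2, Plk3, Zmat3 and Eda2r. Trp53 was higher in basal keratin cells in 8 of 8, at 120 ± 11.4 against 96.5 ± 11.2 CPM. The same held in 8 of 8 for the death receptor gene Fas, the lipid transfer gene Pltp, Ak1 and Dcxr. Cells with a cycling UMI had less Btg2, Perp, Xpc and Slc19a2 than the rest in 8 of 8 libraries, and no member was higher in cycling cells in all 8.

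**Figure D4:**
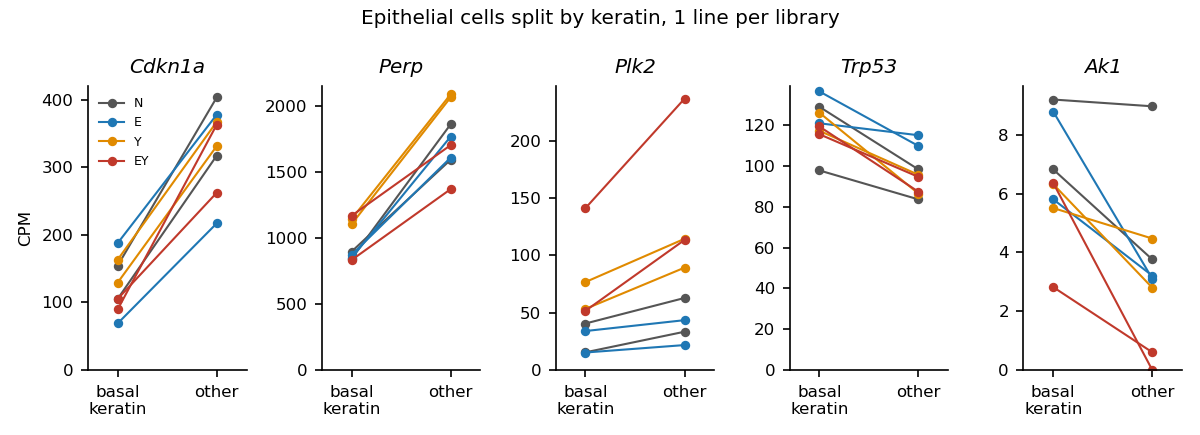
Lines join the level in CPM (vertical axis, from 0) of basal keratin cells (left) and of the other epithelial cells (right) of each of the 8 libraries, coloured by group, for 5 members. In every library Cdkn1a, Perp and Plk2 are higher in the other cells and Trp53 and Ak1 are higher in basal keratin cells.

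Immune cells of the same libraries do not stem from Krt14-expressing cells, and served to give the members' levels outside the lineage that induces the transgenes. They were cells with at least 1 Ptprc UMI and under 0.5% keratin UMIs, of mixed types whose makeup differed between libraries. The sum of 4 T cell markers was 1565 to 1606 CPM in N, 994 to 2060 in E, 856 to 1516 in Y and 564 to 790 in EY. The study found that most immune cells of EY were myeloid derived suppressor cells. Immune comparisons between groups therefore also compare cell types, whose part was not tested. The immune cells also held epithelial RNA, with a sum of the 8 epithelial markers of 340 to 1532 CPM, highest in EY2. Yap1 was at 0.838 to 1.19 CPM in the immune cells of N and 0.241 to 1.48 CPM in those of E. In Y it was at 5.498 to 5.53 CPM and in EY at 10.3 to 16.1 CPM, and it was called higher with YAP (3.12). The immune cells were therefore not shown to be free of epithelial or transgene RNA, and its part in the results was not tested. The E6-E7 effect called 0 of the 31 members tested there and 0.0% of all genes, with 6 members at an unadjusted p under 0.05, against 11.9% of all genes. DESeq2 called 0 members there, against 1.39% of all genes. The YAP effect called 2 members, Plk3 (1.44, SE 0.32, adjusted p = 0.0485) and the sestrin gene Sesn2 (1.24, SE 0.27, adjusted p = 0.0472), both higher, against 3.65% of all genes. Without 1 library that number ran from 0 (without N1, E2, Y1, EY1 or EY2) to 5 (without Y2), with 1 without N2 or E1, and the share of all genes from 0.0% without E2 to 8.23% without Y2.

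The YAP effect differed between the cell classes for 2 members, against 5.52% of all genes. Cdkn1a was at 233 and 206 CPM in the immune cells of N, 494 and 159 CPM in E, 602 and 482 CPM in Y, and 857 and 756 CPM in EY. Its immune levels were highest in EY, whereas the epithelial levels overlapped between groups. The epithelial effect minus the immune one was -1.11 on the log2 scale (SE 0.18, adjusted p = 0.0107). Pmaip1 was at 49.0 to 72.8 CPM in the immune cells, with the Y and EY libraries inside the range of N and E, and its difference was 1.65 (SE 0.27, adjusted p = 0.00999). Both differences were called in 8 of 8 fits that left out a library. Without Y1 the number of members called was 4, against 5.85% of all genes. The E6-E7 effect differed between the classes for 0 members, against 0.0206% of all genes, with 6 at an unadjusted p under 0.05, against 9.39% of all genes, and 1 called by DESeq2, against 0.448%. Mdm2 reached 162 and 113 CPM in the immune cells of EY, against 47.4 to 73.3 CPM in the other 6 libraries, with an immune YAP effect of 0.78 that missed the threshold (adjusted p = 0.114). Immune library sizes were scaled by 0.696 in EY1 and 0.784 in EY2, and by 1.003 to 1.171 in the other 6. A lower factor raises the CPM of every gene, and its part in these levels was not tested.

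**Figure D5:**
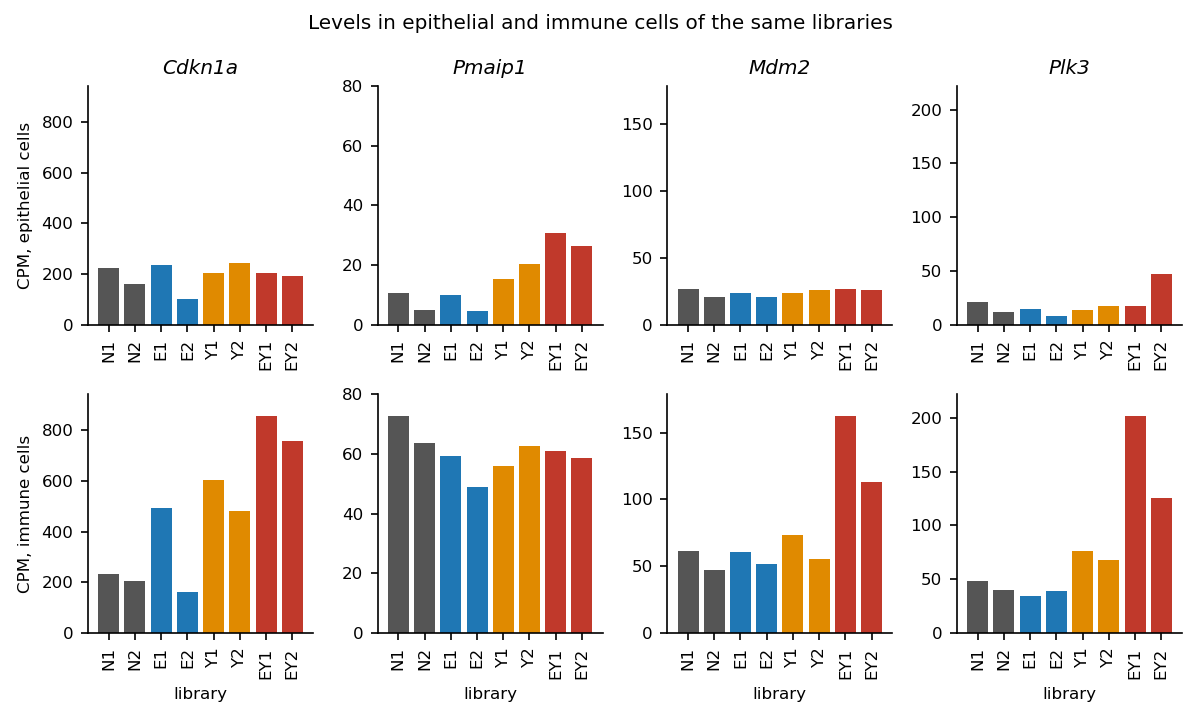
Bars give the level in CPM (vertical axis, from 0) of Cdkn1a, Pmaip1, Mdm2 and Plk3 in each of the 8 libraries, in epithelial cells (top) and immune cells (bottom), on the same scale for each gene. Cdkn1a is highest in EY in the immune cells, and Pmaip1 is higher in Y and EY in the epithelial cells.

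Other genes of the pathway were described by counts. Of 34 further p53 targets 33 were tested, and with E6-E7 0 were called, against 0.406% of all genes, with 7 at an unadjusted p under 0.05, against 11.5%. With YAP 3 were called, against 8.98% of all genes, all higher: the receptor kinase gene Epha2 (1.53), the AMPK subunit gene Prkab1 (0.59) and Susd6 (0.55). In EY against N 6 were called, against 18.8% of all genes, Epha2, Prkab1, Pml, Dram1 and Susd6 higher and Prkab2 lower. In E against N 1 was called, Pml, which encodes a nuclear body protein, at 1.504 (SE 0.19, adjusted p = 0.0329), against 0.243% of all genes.

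Of 17 tested regulators of p53, 0 were called with E6-E7, against 0.406% of all genes, and 0 with YAP, against 8.98%. In EY against N 8 were called, where 18.8% of all genes were called. Chek1, a checkpoint kinase gene, was higher by 2.13 (SE 0.55, adjusted p = 0.0364). The other 7 were lower: the p53 inhibitor gene Mdm4 (-0.69), the ligase gene Cop1 (-0.75), Trp53bp1 (-0.89), the kinase gene Hipk2 (-1.18), the E6 partner gene Ube3a (-0.48) and the acetyltransferase genes Ep300 (-0.94) and Crebbp (-0.76). Of 12 replication genes, Mcm2 to Mcm7 were higher in EY than in N, Mcm2 by 2.17 (SE 0.44, adjusted p = 0.0209). With E6-E7 0 of the 12 were called, against 0.406% of all genes, with 10 at an unadjusted p under 0.05, against 11.5% of all genes.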

How the data were processed

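The authors aligned the reads and counted UMIs with Cell Ranger (version 5.0.0 in the file headers, mouse build mm10 per the labels) and deposited raw counts per gene and cell barcode, 1 matrix for each of 8 libraries. Following the limits of the study, cells were kept if they had 1000 to 5500 genes, no more than 30000 UMIs and no more than 7% of them mitochondrial. With and without the upper limits, epithelial cells numbered 3447 and 3521 in N1, 415 and 741 in N2, and 4055 and 4185 in E1. They numbered 553 and 944 in E2, 1289 and 1897 in Y1, and 1001 and 1588 in Y2. In EY1 there were 170 and 481 and in EY2 2027 and 2462, so the limits took unequal shares of the libraries. No doublet caller was run. Counts were summed per library over epithelial cells and over immune cells, since libraries and not cells are replicates, and tested with edgeR 4.0.16 (quasi-likelihood test, TMM, filterByExpr, R 4.3.3) and Benjamini-Hochberg adjustment over all genes, with 0.05 as threshold. The E6-E7 and YAP effects came from an additive model, single comparisons from group means, and the difference between cell classes from a model with library as a block. DESeq2 1.42.0 was an alternative. Transgenes are not among the features. Pairs of libraries shared 2 to 19 barcodes, at most 0.393% of the smaller library. The fits were tested on simulated data. Levels in every library are given for members called for E6-E7, YAP or EY against N and for Trp53, Cdkn1a, Mdm2, Ccng1, Bax and Perp. Other genes were named where called or nearest to the threshold, or, like Btg2, chosen after their values were seen. The members and lists were chosen with earlier results of these data known.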

Additional observations from a re-analysis of the deposited data

Results flagged for a closer look

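The YAP effect differed between epithelial and immune cells for 2 of the 33 members tested, against 5.52% of all genes, so their share was near the background. This was a test of the difference itself in a model with library as a block. For Cdkn1a the epithelial effect minus the immune one was -1.11 on the log2 scale (adjusted p = 0.0107), with leave-one-out values from -1.23 to -0.96. For Pmaip1 it was 1.65 (adjusted p = 0.00999), with leave-one-out values from 1.46 to 1.94. The makeup of the immune cells differed too: the sum of 4 T cell markers ran from 564 to 2060 CPM and that of 5 myeloid markers from 7698 to 17582 CPM over the libraries, and their part in the differences was not tested. Epithelial markers summed to 340 to 1532 CPM in the immune cells, and the part of this RNA was not tested either. The test used here for single outlying samples is not made for groups of 2 and was not run.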

How the results depend on the processing

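Of 68 counts of called members under other settings than leaving out a library, 28 stayed within 1.5 times the main count, 6 were lower and 34 higher. Of 159 values of single genes, 139 kept their direction and side of the threshold, 15 lost the call, 2 gained one and 3 changed sign. The share of all genes called in the same fit stands in brackets after each count. With DESeq2 the members called numbered 1 for E6-E7 (2.16%), 11 for YAP (20.4%), 10 for EY against N (21.8%), 2 for EY against Y (7.29%), 10 for EY against E (19.8%), 1 for the interaction (0.743%), 6 for YAP in immune cells (12.6%) and 1 for the difference of the E6-E7 effect between classes (0.448%). Without a filter on low counts they numbered 2 for E6-E7 (3.52%), 10 for YAP (14.9%), 3 for Y against N (5.56%), 12 for EY against N (19.7%), 8 for EY against Y (9.74%), 12 for EY against E (18.0%), 4 for the interaction (3.09%), 2 for E6-E7 in immune cells (5.08%), 12 for YAP in immune cells (11.7%), and 7 for the difference of the YAP effect between classes (7.62%). Without upper limits they numbered 15 for YAP (41.4%), 6 for Y against N (10.2%), 14 for EY against N (40.8%), 4 for EY against Y (4.52%), 14 for EY against E (38.7%), 1 for the interaction (0.135%), 1 for YAP in immune cells (3.7%) and 6 for the difference of the YAP effect (13.1%). Without any cell limits they numbered 17 for YAP (41.4%), 6 for Y against N (9.83%), 15 for EY against N (40.0%), 4 for EY against Y (4.08%) and 14 for EY against E (38.2%). In basal keratin cells they numbered 0 for YAP (6.24%), 3 for EY against N (17.4%), 1 for EY against Y (0.497%) and 3 for EY against E (15.9%), and in cells without cycling UMIs 5 for YAP (7.31%), 2 for EY against N (6.46%) and 2 for EY against E (5.75%). A keratin minimum of 1%, chosen after seeing the data because the planned 5% left 0 cells in EY2, gave 4 for YAP (9.58%) and 2 for EY against Y (3.26%). The causes were not tested. Leaving out 1 library at a time moved the counts for YAP, EY against N, EY against E, EY against Y, YAP in immune cells and the difference of the YAP effect. The share of all genes called moved too, and each such fit kept 1 library in a group. The E6-E7 effect changed sign for Mdm2 with DESeq2 (0.000313) and for Ccng1 with the 1% minimum (0.021) and in cells without cycling UMIs (0.0088). Without upper limits the E6-E7 effect was -0.40 (SE 0.12) for Ccng1, -0.23 (SE 0.10) for Mdm2 and -0.33 (SE 0.23) for Cdkn1a. It was 0.06 for Trp53, 0.14 for Bax and -0.16 for Perp, and 0 members were called, against 0.243% of all genes. Over the fits that left out a library it ran from -0.0054 to 0.11 for Trp53, -0.48 to 0.032 for Cdkn1a, -0.054 to 0.11 for Mdm2 and -0.19 to 0.084 for Ccng1, so their signs are not settled. No paired analysis was possible because the labels carry animal numbers and no shared replicate numbers, and the replicate numbers used here only name the libraries in accession order. The 170 cells of EY1 limit the precision of every value of EY.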
